A study of Mus musculus with 8 samples.

Results

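The 9 genes described here encode proteins of plasminogen activation and blood clotting, and were taken by name: Plau, Plaur, Serpinb2, F3, F7, F10, F13a1, Thbd and Procr. They are 9 of the 55414 genes in the count table, and all 9 passed the filter on low counts and were tested. RNA was sequenced in bulk from macrophages of mouse skin wounds, with 5 libraries (a to e) from day 3 after injury and 3 libraries (a to c) from day 1. Both groups share the same preparation: collagenase-digested wound bed was selected with magnetic beads against F4/80, the surface protein encoded by Adgre1, and each library pooled 6 wounds of 3 mice. The labels give no strain, sex, age, allele or agent for either day, and unwounded skin was not analysed here. A pool is the unit of replication, and whether 1 mouse gave tissue to more than 1 pool is not stated, so the p-values measure only the spread between pools.

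Clotting starts when tissue factor on a cell surface binds factor VIIa, and this pair activates factor X, whose active form makes thrombin. Thrombin turns fibrinogen into fibrin, and factor XIII cross-links the fibrin. Urokinase, held at the cell surface by its receptor, turns plasminogen into plasmin, which dissolves fibrin, and macrophages are a known source of tissue factor, urokinase, its inhibitor Serpinb2 and the factor XIII A subunit.

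Total counts ran from 50515389 to 56661695 in the day 3 libraries and from 41566151 to 60289310 in the day 1 libraries, so 3 counts, taken as the floor, correspond to at most 0.0722 CPM (counts scaled to the library total), for counting error only. Adgre1 stood at 994 to 1181 CPM at day 3 and 689 to 940.3 CPM at day 1, and 10 macrophage markers summed to 35757 to 45745 CPM at day 3 and 24765 to 30555 CPM at day 1. Lyz2 held much of that sum, with 15661 to 23432 CPM at day 3 and 6717 to 9897 CPM at day 1. C1qb and C1qc were also higher in every day 3 library than in any day 1 library. Fcgr1 went the other way (344 to 488 CPM at day 3, 717 to 979 CPM at day 1). The ranges of Csf1r, Cd68, Cd14, Mertk and C1qa overlapped. The library day 3 b stood apart: 10 of 10 neutrophil markers were higher in it than in any other day 3 library, summing to 3632 CPM there, to 428 to 640.0 CPM in day 3 a, c, d and e and to 843 CPM in day 1 a, 2204 CPM in day 1 b and 3776 CPM in day 1 c. None of the 10 was at 0 in day 3 b, where S100a8 (1773 CPM) and S100a9 (1062 CPM) made up most of the sum. Ly6g, Ltf and Camp had 6.83, 7.12 and 0.935 CPM there. Of all 15371 genes tested, 22.1% were highest of the day 3 libraries in day 3 b, and 6 of the 9 genes were. Each comparison of the 9 genes is therefore given with and without it. Since day 3 b was set aside partly on the values of these genes, calls without it are a description and no independent support. Genes with at least 1 count numbered 14952 to 15359 in day 3 b to e and 20557 in day 3 a, against 23928 to 27315 at day 1, a difference that cannot be told apart from the day. Day 1 a lay farthest out on the first principal component (32.7% of the variance), and results without day 1 a and day 3 b are given where they change a call.

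With all 8 libraries, 0 of the 9 genes were called between the days (edgeR quasi-likelihood test, adjusted p under 0.05 over all genes tested), where 0.013% of all genes tested were called. At an unadjusted p under 0.05 there was 1, F10, where 15.7% of all genes tested passed. The DESeq2 test called 0 of the 9 and 8.63% of the genes it tested. Without day 3 b, a library set aside partly for the values of these genes, Serpinb2 and F10 were called, both lower at day 3. Over all genes tested then, 0.208% were called and 0.174% were called lower. The log2 fold change, day 3 minus day 1, was positive for 3 genes and negative for 6, with a median of -0.21, against -0.17 over all genes tested. Without day 3 b it was negative for 8 of the 9, with a median of -0.40, against -0.17 over all genes tested then. In bulk RNA, fewer cells of a type and less RNA per cell cannot be told apart.

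**Figure D1:**
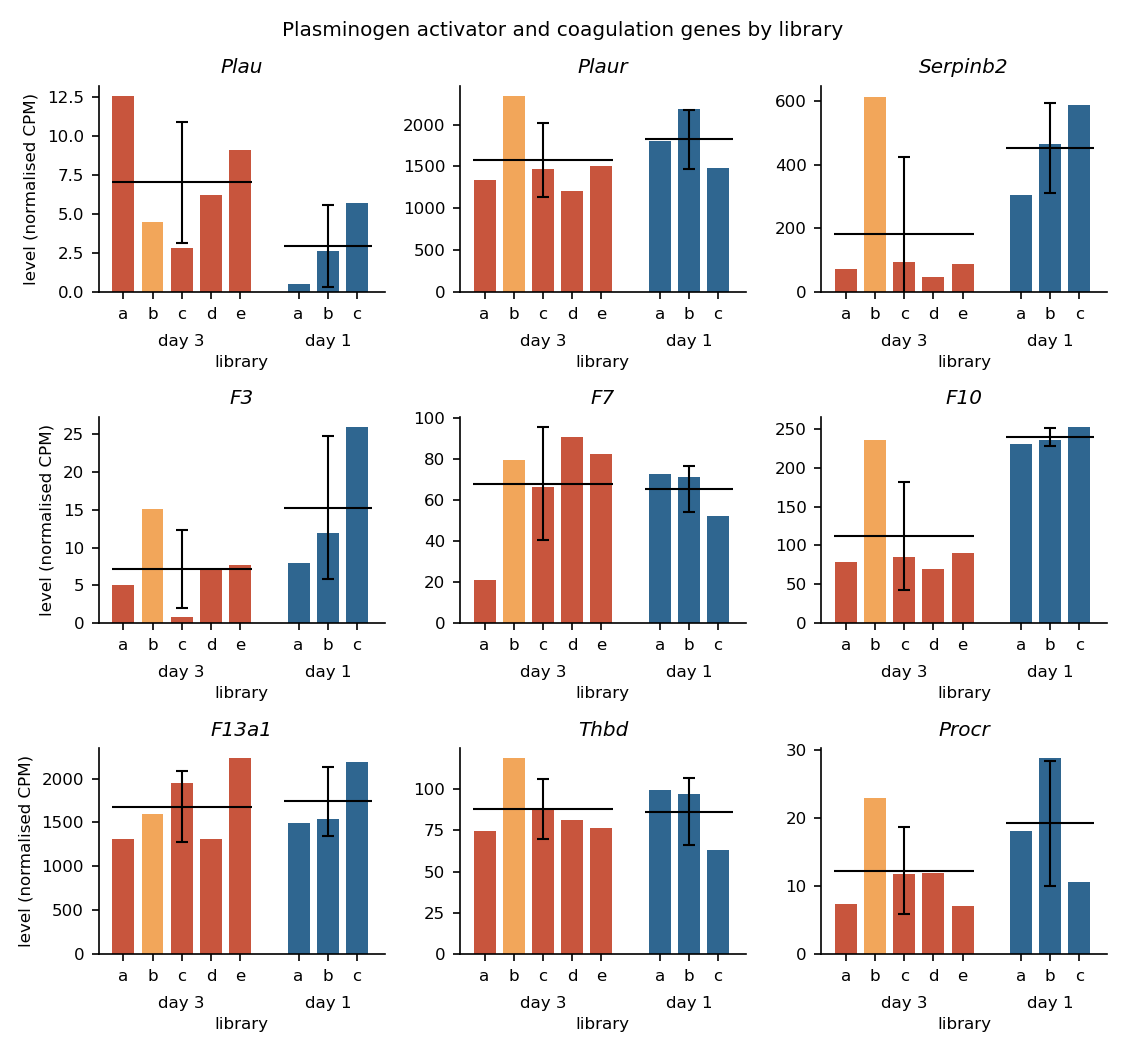
Normalised CPM of the 9 genes (vertical axes, from 0) in each library: red bars are day 3 libraries, the orange bar is day 3 b, blue bars are day 1 libraries. Black lines are day means and error bars are SD (n = 5 and 3; the SD of Serpinb2 at day 3 exceeds its mean, so its bar ends at the axis). In day 3 b, Serpinb2 stands above every day 1 library and F10 within the day 1 range, both above the other 4 day 3 libraries.

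Of the plasminogen activation genes, Serpinb2 encodes plasminogen activator inhibitor 2, a serpin that blocks urokinase and is made in large amounts by stimulated macrophages. Its gene (ENSMUSG00000062345) lies on the plus strand of chromosome 1 at chr1:107439153-107463208 (GRCm39). Serpinb2 had 71.0, 614, 93.9, 47.0 and 88.4 CPM in day 3 a to e, against 307, 466 and 588 CPM in day 1 a to c. Day 3 a, c, d and e lay below every day 1 library and day 3 b above all 3, so the ranges of the days overlapped. The means were 183 ± 242 CPM at day 3 and 454 ± 141 CPM at day 1 (SD, n = 5 and 3), with a log2 fold change of -1.31 ± 0.77 (SE; adjusted p = 0.468 by edgeR).

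With day 3 b set aside, the day 3 mean of Serpinb2 was 75.1 ± 21.1 CPM (SD, n = 4), and the gene fell by 2.59 ± 0.30 on the log2 scale relative to day 1 (adjusted p = 0.0440 by edgeR). In day 3 b it was 8.18 times the mean of the other day 3 libraries, a ratio above that of 98.1% of genes, whose median ratio was 0.895. The counting does not use strand, and Serpinb2 shares 275 of its 2349 exon bases with Serpinb10, which had 0 to 136 counts per library.

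In that comparison Serpinb2 had the largest absolute log2 fold change of the 9 genes. Its promoter is shown for that reason, beside those of F10, the other gene called then, and F7, the neighbour of F10, which was not called. The windows run from 250 bases before to 50 bases after the transcription start (RefSeq, GRCm38.p6, an older build than that of the counts) at chr1:107511173-107511472, chr8:13037058-13037357 and chr8:13025784-13026083, all on the plus strand. Capitals mark matches, on either strand, to the AP-1 motif TGANTCA or the TATA motif TATAAA. No AP-1 match overlaps a TATA match in the windows printed.
Serpinb2: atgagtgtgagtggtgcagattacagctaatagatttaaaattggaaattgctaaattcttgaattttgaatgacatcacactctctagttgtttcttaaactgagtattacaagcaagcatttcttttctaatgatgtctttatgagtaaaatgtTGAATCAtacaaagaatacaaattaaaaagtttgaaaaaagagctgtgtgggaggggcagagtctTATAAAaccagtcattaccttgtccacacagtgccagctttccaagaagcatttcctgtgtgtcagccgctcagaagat
F10: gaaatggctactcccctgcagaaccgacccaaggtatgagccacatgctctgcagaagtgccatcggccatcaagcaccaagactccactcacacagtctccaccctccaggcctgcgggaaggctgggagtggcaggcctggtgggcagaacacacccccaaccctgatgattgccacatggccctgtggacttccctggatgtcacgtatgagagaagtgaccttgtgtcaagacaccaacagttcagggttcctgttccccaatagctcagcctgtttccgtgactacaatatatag
F7: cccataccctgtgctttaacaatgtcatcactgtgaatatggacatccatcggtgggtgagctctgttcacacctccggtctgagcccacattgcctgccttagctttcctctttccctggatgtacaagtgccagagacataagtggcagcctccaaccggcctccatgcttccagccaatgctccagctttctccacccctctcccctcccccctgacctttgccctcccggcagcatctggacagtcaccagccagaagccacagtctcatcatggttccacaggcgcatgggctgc
In the Serpinb2 window printed the AP-1 match ends 88 bases and the TATA match 24 bases before the start. Serpinb2 has another annotated start, from which the same matches end 175 and 111 bases upstream. Windows were found for 7 of the 9 genes, and an AP-1 match was present for 4 of the 7 (Plaur, Serpinb2, F3 and Procr), while 7.81% of all 32851 windows of 300 bases hold one. The 7 genes had 9 windows, so the count is per gene and the share per window. In the Plaur window it ended 63 bases before the start, in Procr 148, and F3 had matches ending 140 and 129 bases before the start. A TATA match, held by 13.6% of all windows, was found in Serpinb2 and F3, in F3 on the opposite strand and 48 bases past the start. The windows of F7, F10 and F13a1 held neither set of letters, and a match is a description of the letters only.

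Plau encodes urokinase, the activator that cuts plasminogen to plasmin, and Plaur the receptor that anchors it to the cell surface. Plau (ENSMUSG00000021822, chr14:20886728-20893453, plus strand) had 12.5, 4.45, 2.79, 6.19 and 9.11 CPM in day 3 a to e, against 0.529, 2.60 and 5.72 CPM in day 1 a to c. All 5 day 3 libraries lay above 2 of the 3 day 1 libraries, but day 1 c lay above day 3 b and c. The counts behind these values were 142 to 661 at day 3 and 21 to 314 at day 1. The means were 7.02 ± 3.88 CPM at day 3 and 2.95 ± 2.61 CPM at day 1, with a log2 fold change of 1.25 ± 0.86 (adjusted p = 0.553 by edgeR), and 1.38 ± 0.93 without day 3 b (adjusted p = 0.561). Plau was then the 1 gene of the 9 with a positive log2 fold change, and it was not called. Leaving out day 1 a gave 0.73 and leaving out day 1 c gave 2.16 (adjusted p = 0.748 and 0.332).

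Plaur (ENSMUSG00000046223, chr7:24161909-24175393, plus strand) had 1342, 2344, 1473, 1211 and 1506 CPM in day 3 a to e, against 1800.0, 2185 and 1483 CPM in day 1 a to c. Day 3 b was the highest of all 8 libraries, and the other 4 lay between 1211 and 1506 CPM, so that the ranges overlapped at day 1 c with and without day 3 b. The log2 fold change was -0.21 ± 0.23 (adjusted p = 0.740 by edgeR), with means of 1575 ± 445 CPM at day 3 and 1823 ± 352 CPM at day 1. Leaving day 3 b out gave -0.40 ± 0.18 (adjusted p = 0.336). Per exon length, Plaur was 96.7 to 477 times Plau in the day 3 libraries and 235 to 3080 times in the day 1 libraries, ranges that overlapped.

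The inhibitor was also set against the activator within each library. Per exon length, Serpinb2 was 5.70, 139, 33.9, 7.65 and 9.78 times Plau in day 3 a to e, against 584, 181 and 104 times in day 1 a to c. Day 3 a, c, d and e lay below every day 1 library, and day 3 b lay between day 1 c and day 1 b.

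F3 encodes tissue factor, the membrane protein that starts clotting. F3 (ENSMUSG00000028128, chr3:121517186-121528697, plus strand) had 5.01, 15.0, 0.826, 7.12 and 7.70 CPM in day 3 a to e, against 7.90, 11.98 and 26.0 CPM in day 1 a to c. Day 3 b lay above 2 of the 3 day 1 libraries, and the other day 3 libraries lay below all 3, day 3 e by only a narrow margin. The means were 7.14 ± 5.18 CPM at day 3 and 15.3 ± 9.49 CPM at day 1, with a log2 fold change of -1.10 ± 0.76 (adjusted p = 0.554 by edgeR). Without day 3 b the day 3 mean was 5.17 ± 3.11 CPM and the log2 fold change -1.56 ± 0.78 (adjusted p = 0.390), which was not called. Without day 1 c, the highest library, it was -0.49 (adjusted p = 0.830).

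F10 encodes factor X, the protease precursor that the tissue factor complex activates. F10 (ENSMUSG00000031444, chr8:13087308-13106676, plus strand) had 78.6, 236, 84.9, 70.2 and 89.9 CPM in day 3 a to e, against 231, 236 and 253 CPM in day 1 a to c. The 3 day 1 libraries were close together, 4 day 3 libraries lay far below them, and day 3 b lay within the day 1 range. The means were 112 ± 69.6 CPM at day 3 and 239.8 ± 11.5 CPM at day 1, with a log2 fold change of -1.10 ± 0.38 (unadjusted p = 0.0159 and adjusted p = 0.181 by edgeR). Without day 3 b the day 3 mean was 80.9 ± 8.53 CPM (SD, n = 4), and F10 fell by 1.57 ± 0.16 on the log2 scale relative to day 1 (adjusted p = 0.0356 by edgeR). Limma voom called F10 with all 8 libraries (log2 fold change -1.28, adjusted p = 0.0498), where 5.37% of all genes tested were called. With library quality weights added to voom (6.44% of genes called) F10 was called again, and so it was without a filter on low counts (3.5% called) and without day 1 a and day 3 b together (0.149% called). The last pair of settings also called Serpinb2, which neither voom fit did.

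F7 encodes factor VII, the plasma protease that tissue factor binds, and lies beside F10 on the same strand with 1498 bases between them. F7 (ENSMUSG00000031443, chr8:13076034-13085809) had 21.0, 79.6, 66.6, 90.9 and 82.5 CPM in day 3 a to e, against 72.7, 71.2 and 52.4 CPM in day 1 a to c. Only day 3 a was below the day 1 range, and 3 of the 5 day 3 libraries were above it. The means were 68.1 ± 27.7 CPM at day 3 and 65.4 ± 11.3 CPM at day 1, with a log2 fold change of 0.058 ± 0.40 (adjusted p = 0.966 by edgeR), and -0.0022 ± 0.43 without day 3 b. Leaving out day 3 a gave 0.29 (adjusted p = 0.588).

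Per exon length, F10 was 2.54, 2.02, 0.869, 0.525 and 0.742 times F7 in day 3 a to e, against 2.16, 2.25 and 3.29 times in day 1 a to c. F10 thus exceeded F7 in all 3 day 1 libraries and in day 3 a and b, and was the lower of the pair in day 3 c, d and e. In day 3 a both genes were low, and in day 3 b F10 lay within and F7 above its day 1 range.

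F13a1 encodes the A subunit of factor XIII, the transglutaminase that cross-links fibrin, and is known from platelets and macrophages. F13a1 (ENSMUSG00000039109, chr13:37051152-37234220, minus strand) had 1312, 1591, 1949, 1308 and 2236 CPM in day 3 a to e, against 1493, 1533 and 2192 CPM in day 1 a to c. The day 3 libraries spanned the whole day 1 range, and day 3 b lay within it. The means were 1679 ± 407 CPM at day 3 and 1739.6 ± 393 CPM at day 1, with a log2 fold change of -0.051 ± 0.23 (adjusted p = 0.947 by edgeR), and -0.031 ± 0.25 without day 3 b (adjusted p = 0.975). F13a1 shares 74 of its 6741 exon bases with Gm30489 on the other strand, which had 0 to 20 counts per library.

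The anticoagulant receptors were thrombomodulin, encoded by Thbd, which binds thrombin so that it activates protein C, and the endothelial protein C receptor, encoded by Procr, which presents protein C to that complex. Thbd (ENSMUSG00000074743, chr2:148246386-148250108, minus strand) had 74.7, 119, 88.1, 80.9 and 76.5 CPM in day 3 a to e, against 99.1, 97.1 and 62.9 CPM in day 1 a to c. Day 3 b was the highest of the 8 libraries and day 1 c the lowest. The means were 87.8 ± 18.1 CPM at day 3 and 86.3 ± 20.4 CPM at day 1, with a log2 fold change of 0.024 ± 0.23 (adjusted p = 0.977 by edgeR), and -0.11 ± 0.21 without day 3 b (adjusted p = 0.87).

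Procr (ENSMUSG00000027611, chr2:155593037-155597391, plus strand) had 7.37, 22.9, 11.8, 11.9 and 7.13 CPM in day 3 a to e, against 18.1, 28.9 and 10.7 CPM in day 1 a to c. Day 3 b lay inside the day 1 range, as did day 3 c and d, and day 3 a and e lay below it. The means were 12.2 ± 6.40 CPM at day 3 and 19.2 ± 9.15 CPM at day 1, with a log2 fold change of -0.65 ± 0.49 (adjusted p = 0.599 by edgeR), and -1.004 ± 0.46 without day 3 b (adjusted p = 0.352). Without day 1 b it was -0.23 (adjusted p = 0.905). Both proteins are also known from endothelium, and 10 endothelial markers summed to 15.2 to 27.3 CPM at day 3 and 29.1 to 68.9 CPM at day 1. Within that list Pecam1 had 10.9 to 22.1 CPM at day 3 and 12.7 to 30.7 CPM at day 1, Kdr 0.0407 to 7.16 CPM at day 3 and 4.31 to 45.2 CPM at day 1, and Cdh5 0.0381 to 1.12 CPM at day 3 and 0.0503 to 4.22 CPM at day 1. The part of endothelial RNA in the Thbd and Procr values was not tested.

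**Figure D2:**
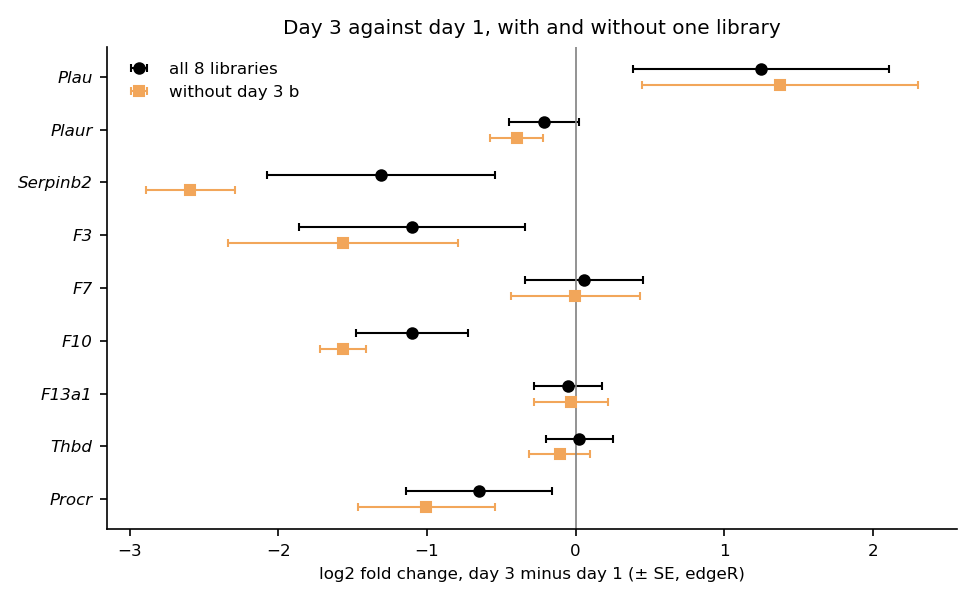
Log2 fold change, day 3 minus day 1 (horizontal axis), of the 9 genes with SE bars, over all 8 libraries and without day 3 b, from the edgeR fit over all genes. Serpinb2 and F10 lie farther below 0 without day 3 b, at -2.59 and -1.57, while F7, F13a1 and Thbd stay near 0.

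As a check without a count model, an exact permutation test with 56 assignments of libraries to days, two-sided on log2(CPM + 0.1), gave unadjusted p-values from 0.107 for F10 to 0.964 for Thbd, where the smallest possible p is 0.0357. When day 3 b was left out, the day ranges of 3 of the 9 genes (Serpinb2, F10 and F3) did not overlap, against 18.4% of all genes tested, and with all libraries 0 of the 9 did not overlap, against 14.1%. The exact p was 0.0571 for each of these 3 genes without day 3 b, the smallest that 35 assignments allow. The pattern of Serpinb2, F10 and F3, with day 3 a, c, d and e below every day 1 library and day 3 b at or above the lowest of them, was found in 2.58% of all genes tested. It was defined from the values of these 3 genes, so the share is a description and no test.

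Per exon length, Plaur and F13a1 led the order of the 9 genes. CPM per kilobase of exon (RPKM) of Plaur averaged 602 ± 170 at day 3 and 697 ± 134 at day 1, and those of F13a1 249 ± 60.4 at day 3 and 258 ± 58.3 at day 1 (SD, n = 5 and 3). Plaur exceeded F13a1 in all 8 libraries. Serpinb2 (77.8 ± 103 RPKM at day 3 and 193 ± 60.2 at day 1), F10 (41.0 ± 25.5 at day 3 and 87.8 ± 4.22 at day 1), F7 (36.6 ± 14.9 at day 3 and 35.2 ± 6.10 at day 1) and Thbd (23.6 ± 4.86 at day 3 and 23.2 ± 5.47 at day 1) formed the middle of the order. F13a1 was above Serpinb2 in 4 of 5 day 3 libraries and all 3 day 1 libraries. The order of F10 and F7 changed between libraries, with F10 above F7 in 2 of 5 day 3 libraries and all 3 day 1 libraries. The lowest were Procr (6.03 ± 3.15 RPKM at day 3 and 9.46 ± 4.50 at day 1), Plau (2.97 ± 1.64 at day 3 and 1.25 ± 1.10 at day 1) and F3 (2.83 ± 2.05 at day 3 and 6.05 ± 3.76 at day 1). F3 was above Plau in 2 of 5 day 3 libraries and in all 3 day 1 libraries.

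**Figure D3:**
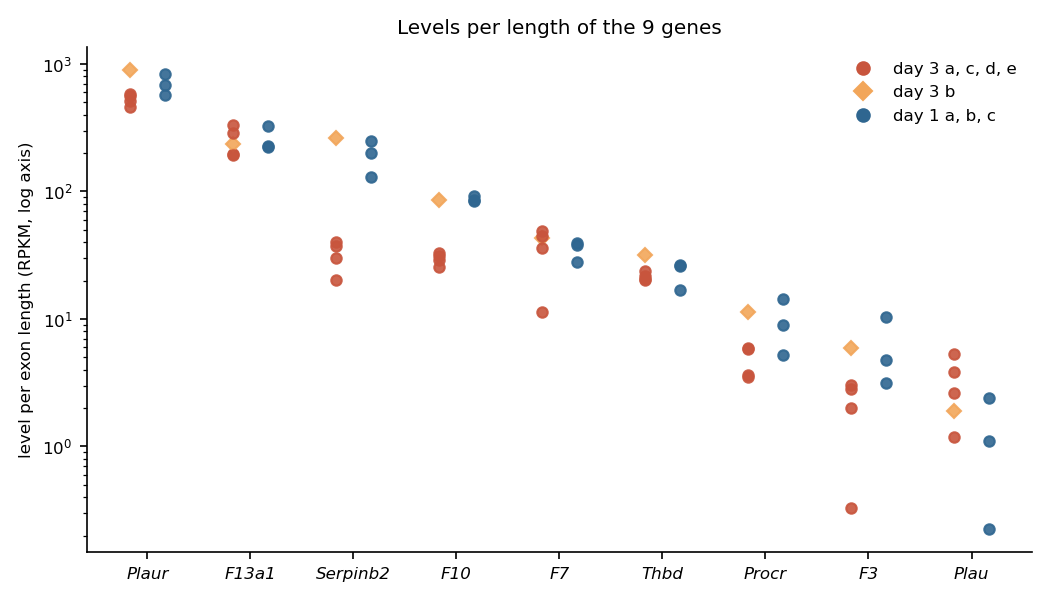
Level per exon length (RPKM, log axis) of each of the 9 genes in every library, day 3 left of day 1 for each gene. Plaur and F13a1 lie highest and Procr, Plau and F3 lowest on both days.

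Day 3 b departed from the other day 3 libraries by different amounts for the 9 genes. Relative to their mean it was 2.91 times as high for F10, 2.91 times for F3, 2.39 times for Procr, 1.69 times for Plaur and 1.48 times for Thbd. F7 was at 1.22 times, F13a1 at 0.935 times and Plau at 0.581 times. The ratios of Serpinb2, F10 and F3 lay above those of 93.3% or more of genes, and the 95th percentile of all ratios was 3.65.

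The summed markers of monocytes, keratinocytes and dendritic cells were also highest of day 3 in day 3 b. As for the neutrophil sum, most of each sum came from few genes. Day 3 b was the highest day 3 library for 3 of 8 monocyte, 4 of 10 keratinocyte and 4 of 6 dendritic cell markers. Monocyte markers summed to 5809 CPM there, with 2790.4 to 3302 CPM in day 3 a, c, d and e and 4794 to 5005 CPM at day 1. Clec4e alone had 4221 CPM of that sum in day 3 b, whereas Ly6c2 (58.7 CPM), Ccr2 (801 CPM) and Plac8 (153 CPM) were at their lowest of day 3 there. Keratinocyte markers summed to 42.8 CPM in day 3 b, 1.28 to 7.60 CPM in day 3 a, c, d and e and 0.881 to 7.34 CPM at day 1, and dendritic cell markers to 157 CPM in day 3 b, 54.9 to 70.6 CPM in day 3 a, c, d and e and 87.3 to 194 CPM at day 1. In day 3 b, Krt14 (25.2 CPM) and Sfn (13.3 CPM) made up most of the keratinocyte sum, and Ccr7 (109 CPM) most of the dendritic cell sum. The neutrophil sum was 640.0, 3632, 428, 434 and 486 CPM in day 3 a to e, and 843, 2204 and 3776 CPM in day 1 a to c. In the same order, Serpinb2 had 71.0, 614, 93.9, 47.0 and 88.4 CPM, then 307, 466 and 588 CPM. F10 had 78.6, 236, 84.9, 70.2 and 89.9 CPM, then 231, 236 and 253 CPM. Platelet markers, of interest because F13a1 is abundant in platelets, summed to at most 1.95 CPM at day 3 and 5.06 CPM at day 1, with Gp5 and Gp9 at 0 in every library. Fibroblast markers summed to 57.6 to 125 CPM at day 3 and 9.77 to 39.8 CPM at day 1. Col1a1, Col1a2 and Col3a1 were higher in every day 3 library than in any day 1 library. The day ranges of the other fibroblast markers overlapped. What part other cells had in the Serpinb2, F10 and F3 values, or in those of the other genes, was not tested.

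**Figure D4:**
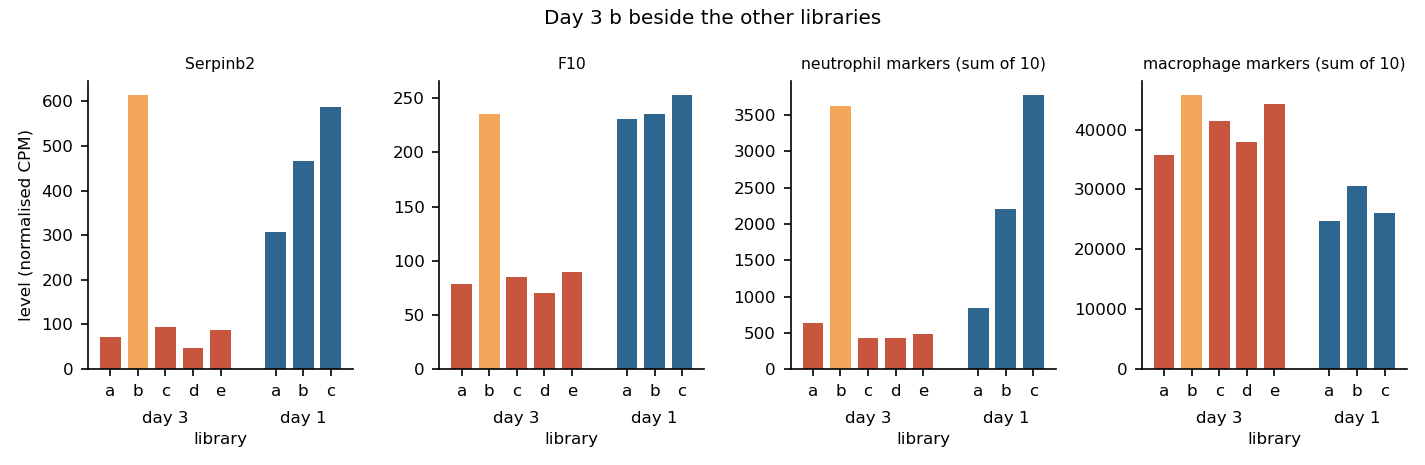
Summed or single normalised CPM (vertical axes, from 0) by library: red bars are day 3 libraries, the orange bar is day 3 b, blue bars are day 1 libraries. Neutrophil markers reach 3632 CPM in day 3 b and 3776 CPM in day 1 c, with 428 to 640.0 CPM in day 3 a, c, d and e.

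The genes whose centred log2 CPM lay closest to single members of the 9 over the 8 libraries were found by the root mean square difference among 6974 candidates, as a description. For Serpinb2 these were Slpi, a secreted inhibitor of leukocyte proteases (difference 0.400), and Ptges, an enzyme of prostaglandin E2 synthesis (0.485). Slpi had 247, 1567, 228, 183 and 218 CPM in day 3 a to e, against 557, 1162 and 929 CPM in day 1 a to c, and was likewise highest in day 3 b. For F10 they were Tes (0.214) and Phlda1 (0.234), and Tes had 97.2, 271, 121, 70.7 and 97.6 CPM in day 3 a to e, against 213, 237 and 222 CPM in day 1 a to c. Plaur lay closest to Plek (0.117) and Snx10 (0.121), F3 to Rhbdf2 (0.445) and Rhbdd2 (0.474), and F7 to Elp2 (0.235) and Mfsd6 (0.297). F13a1 lay closest to Zfand2b (0.157) and Ncbp2 (0.171), and Thbd to Ing3 (0.0651) and Cnnm4 (0.111). Plau was below the expression minimum for this search.

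Of 60 other genes of the same pathways, in 7 lists, 33 were tested with all libraries and 30 without day 3 b. In both fits edgeR called 0 of these genes in either direction. Their values are from all 8 libraries unless stated. At an unadjusted p under 0.05 there were 5 higher and 4 lower at day 3, where 15.7% of all genes tested passed in either direction. Among the 5, F9, Tfpi2 and Serpinb1b had 0 counts in most or all day 1 libraries. They passed the filter only through day 3, so the count of higher genes is a description and no support. With all 8 libraries DESeq2 called 3 of them (F9, Serpinb1b and Vkorc1) and limma voom 2 (Anxa2 and F9), where they called 8.63% and 5.37% of all genes they tested, so neither count is read as a result about the lists. Of the 33, 15 had a positive and 18 a negative log2 fold change. The 4 thrombin receptor genes were below the filter in these libraries.

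In the plasmin system 10 of 14 genes were tested, with a median log2 fold change of -0.27, against -0.17 over all genes tested. Anxa2, a surface protein that binds plasminogen and its activator, had 1547 ± 209 CPM at day 3 and 2351 ± 466 CPM at day 1 (log2 fold change -0.60 ± 0.18, adjusted p = 0.122 by edgeR). Eno1, an enolase that also serves as a plasminogen receptor, had 1833 ± 403 CPM at day 3 and 2769.7 ± 507 CPM at day 1 (-0.60 ± 0.21, adjusted p = 0.194). Each of the 2 genes was lower in every day 3 library, day 3 b included, than in any day 1 library. For Eno1 the margin was narrow, with 2380 CPM in day 3 b and 2409 CPM in day 1 a. Of all genes tested, 14.1% had day ranges that did not overlap. Plasminogen itself, Plg, was not tested, with 0 counts in every day 3 library and at most 4 at day 1.

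Of the other clotting factors 3 of 13 were tested, and 1 of the 3 was at an unadjusted p under 0.05. F9, which encodes factor IX, had 144, 539, 73, 275 and 134 counts in day 3 a to e, against 2, 0 and 0 counts in day 1 a to c. The ranges did not overlap, and the difference was not called (adjusted p = 0.0829 by edgeR); no fold is given because 2 of the 3 day 1 libraries were at 0. F5, which encodes factor V, had 7.54 ± 5.14 CPM at day 3 and 7.51 ± 1.54 CPM at day 1 (log2 fold change 0.0070 ± 0.62, and -0.48 ± 0.60 without day 3 b).

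Of the clotting inhibitors 6 of 9 were tested, with a median log2 fold change of 0.66. Without day 3 b the median was 0.24 over 5 genes, as Tfpi2 was then below the filter. The medians thus cover different genes, and no shift is read from them. Pros1, which encodes protein S, a cofactor of protein C, had 118, 90.6, 161, 122 and 218 CPM in day 3 a to e, against 74.4, 103 and 43.3 CPM in day 1 a to c. Day 3 b lay below day 1 b, and the other day 3 libraries lay above every day 1 library (log2 fold change 0.95 ± 0.35, adjusted p = 0.209 by edgeR). Tfpi2, a Kunitz-type protease inhibitor, had 46, 121, 28, 0 and 0 counts in day 3 a to e and 0 counts in each day 1 library. Anxa5, which covers the phospholipid that clotting factors need, had 1815 ± 196 CPM at day 3 and 1504 ± 372 CPM at day 1 (0.27 ± 0.19).

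All 3 vitamin K cycle genes were tested, with a median log2 fold change of 0.38. Vkorc1, the reductase that regenerates vitamin K, had 8.66 ± 1.53 CPM at day 3 and 3.68 ± 1.63 CPM at day 1 (log2 fold change 1.23 ± 0.54, adjusted p = 0.307 by edgeR), with day ranges that did not overlap. Ggcx, the carboxylase that modifies factors VII, IX and X, had 7.30 ± 1.68 CPM at day 3 and 5.60 ± 4.75 CPM at day 1. Its day 1 values were 0.126, 8.49 and 8.19 CPM in day 1 a to c. The list median of 0.38 is the value of Ggcx (SE 0.96). Without day 1 a the log2 fold change of Ggcx was -0.22, and the list median was 0.48.

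Of 5 other transglutaminases 3 were tested, and all 3 had a negative log2 fold change. Their median of -1.99, against -0.17 over all genes tested, is the value of Tgm1 (SE 1.58). Without day 1 c the median was -1.08. Tgm3 averaged only 0.0895 CPM at day 3 and 0.627 CPM at day 1. Tgm2, the tissue transglutaminase, had 36.2, 68.6, 51.7, 54.1 and 70.7 CPM in day 3 a to e, against 84.7, 105 and 262 CPM in day 1 a to c. Every day 3 library, day 3 b included, lay below every day 1 library, and the difference was not called (log2 fold change -1.42 ± 0.36, adjusted p = 0.0857 by edgeR). Without day 1 c it was -0.76. Tgm1, the keratinocyte enzyme, had 2.19 ± 2.17 CPM at day 3 and 8.74 ± 8.48 CPM at day 1.

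Of 12 other clade B serpins, the family of Serpinb2, 8 were tested, with a median log2 fold change of -0.12. The family holds near-identical copies, so their counts are uncertain. Serpinb9, an inhibitor of granzyme B, had 18.3 ± 4.55 CPM at day 3 and 46.1 ± 36.9 CPM at day 1 (-1.33 ± 0.44, adjusted p = 0.168 by edgeR), and unlike Serpinb2 it was at its lowest in day 3 b, with 13.7 CPM. Its day 1 values were 88.7, 24.5 and 25.0 CPM in day 1 a to c, and without day 1 a the log2 fold change was -0.46 (adjusted p = 0.559). Serpinb1b had 166, 176, 164, 0 and 52 counts in day 3 a to e and 0 counts in each day 1 library. Serpinb6a had 135 ± 37.8 CPM at day 3 and 107 ± 8.54 CPM at day 1, and Serpinb8 had 146 ± 16.6 CPM at day 3 and 157 ± 56.6 CPM at day 1.

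**Figure D5:**
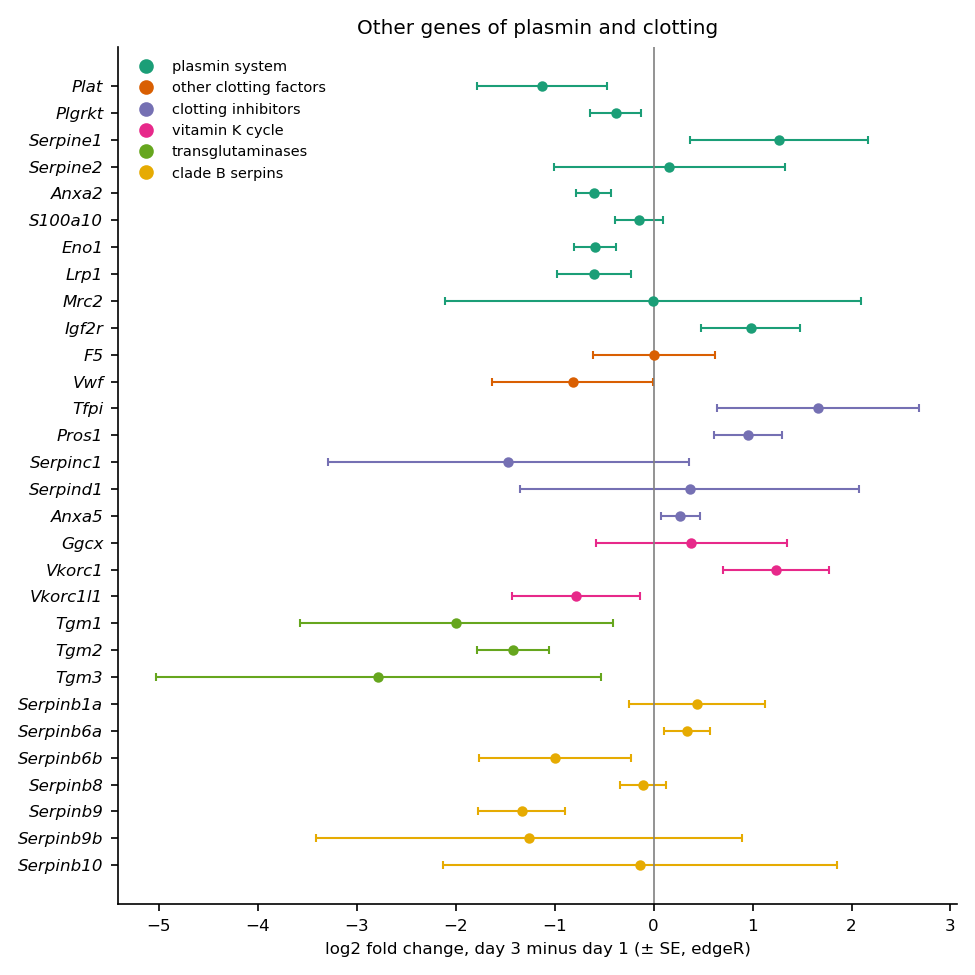
Log2 fold change, day 3 minus day 1 (horizontal axis), with SE bars, for the tested genes of the pathway lists except F9, Tfpi2 and Serpinb1b, which had 0 counts in most or all day 1 libraries, from the edgeR fit over all 8 libraries. Tgm2 lies at -1.42 and Pros1 at 0.95, and no gene shown was called.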

How the data were processed

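Bulk RNA sequencing gave 8 libraries, 5 from day 3 and 3 from day 1. The authors deposited raw counts per gene, made with featureCounts 1.6.0 on Ensembl release 106 (GRCm39) per the file headers, in a command with no option for strand, read pairs or reads with several positions. Per the submitters' processing notes, Trimmomatic and DESeq2 were used; for the aligner, a name was not given in the sources used. Of low counts (2 to 20), 73.0% to 86.0% were even per library, so counts may hold both reads of a pair. The alignments named in the header carry partly other letters than the columns, so letters serve as names.

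Genes were kept with filterByExpr (minimum count 10), scaled by TMM and tested with the edgeR quasi-likelihood test, two-sided; p-values were adjusted after Benjamini and Hochberg across the 15371 genes kept, and genes under 0.05 were called. SE is the size of the log2 fold change divided by the square root of F. Levels are normalised CPM, mean ± SD. The fit was tested on simulated data. Other settings were limma voom, voom weighted by library quality, DESeq2, scaling by RLE or by totals, no filter, a stricter filter (a mean of 5 CPM and, on 1 day, 1 CPM throughout), halved counts, each library left out, day 1 a and day 3 b left out, and libraries a to c with and without a replicate block. The software was DESeq2 1.42.0, limma 3.58.1, edgeR 4.0.16 under R 4.3.3, and scipy 1.17.1.

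The 9 genes, the pathway and marker lists and the rule for named genes were chosen with earlier results of these data known. The rule names the 9 genes, list genes at an unadjusted p under 0.05 or among the 2 most abundant of their list per length, and the 2 genes closest in pattern (average log2 CPM of 3 or more). Plg and the single marker genes were named after their values were seen. The genes closest in pattern to Procr are not reported here.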

Additional observations from a re-analysis of the deposited data

Results flagged for a closer look

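In day 3 b, 7 of 37 groups examined had 1 library far from the rest of its day, judged by the gap to the nearest library as a share of the whole range, with a critical value of 0.71 for 5 libraries. All 7 were the highest value of day 3. The critical value marks about 1 in 20 groups of independent, normally spread values, but these groups share the same libraries. The share of all genes that pass was not measured, so no excess is read from the 7. The shares were 0.917 for Serpinb2 (614 CPM, with 47.0 to 93.9 CPM in day 3 a, c, d and e), 0.881 for F10 (236 CPM, with 70.2 to 89.9 CPM) and 0.740 for Plaur (2344 CPM, with 1211 to 1506 CPM). They were 0.934 for the summed neutrophil markers, 0.848 for keratinocyte markers, 0.846 for dendritic cell markers and 0.831 for monocyte markers. Few genes dominate each of these marker sums (S100a8 and S100a9, Krt14 and Sfn, Ccr7, and Clec4e). Day 3 b was highest of day 3 for 10 of 10 neutrophil markers. It was so for 4 of 10 keratinocyte, 4 of 6 dendritic cell and 3 of 8 monocyte markers. What sets day 3 b apart was not tested.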

How the results depend on the processing

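Over 19 alternatives, F10 was called in 5, Serpinb2 in 3 and the other 7 genes in none. The log2 fold changes of Plau (0.73 to 2.16), Plaur (-0.41 to -0.056), F3 (-1.88 to -0.49), Procr (-1.05 to -0.23), Serpinb2 (-2.81 to -0.82) and F10 (-1.60 to -0.85) kept their sign in all 19. F10 was called by limma voom (-1.28, adjusted p = 0.0498), voom with library quality weights (-1.36, 0.0389), without the filter on low counts (-1.09, 0.00101), without day 1 a and day 3 b (-1.60, 0.0276) and without day 3 b (-1.57). Serpinb2 was called without the filter (-1.32, 1.22e-06), without day 1 a and day 3 b (-2.81, 0.0228) and without day 3 b (-2.59). Leaving out 1 library at a time gave -2.59 to -1.06 for Serpinb2 and -1.57 to -0.97 for F10. The sign turned for F7 in 7 settings, with -0.078 by voom and -0.092 to 0.29 over the libraries left out, for F13a1 in 4, with 0.038 under voom weights and -0.18 to 0.14, and for Thbd in 4, with -0.046 under voom weights, -0.00069 without day 1 a and day 3 b, and -0.16 to 0.12. Genes called over the whole table numbered 2, against 1887 by DESeq2, 825 by voom, 990 with weights, 1347 without the filter, 146 with the stricter filter, 47 from halved counts, 25 without day 1 a and day 3 b, and 0 to 59 with 1 library left out (31 without day 3 b, 59 without day 1 b). Of the pathway genes DESeq2 called 3 (F9, Serpinb1b and Vkorc1), voom 2 (Anxa2 and F9), voom with weights 1 (F9) and the fit without the filter 8, and no library left out gave any. The cause of these differences was not tested.

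Libraries a to c of the days share only a letter: same-letter deviations correlated at 0.0697, 0.00779 and 0.0567. The replicate block on the letter called 0 genes (1343 at an unadjusted p under 0.05), as did the same libraries without it (1660.0). F7 was at -0.39 with the replicate block and -0.23 without, and no other member changed sign. At these depths 3 counts are 0.0498 to 0.0722 CPM, and the lowest values of F3 (0.826 CPM) and Plau (0.529 CPM) lay above that floor.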
